A study of Rattus norvegicus with 210 samples.

Results

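The preoptic area (POA) is the anterior hypothalamic region that holds most cell bodies of the gonadotropin-releasing hormone (GnRH) neurons in the rat. Its transcriptome was compared between postnatal day (PND) 42 and PND22 in female rats exposed perinatally to diethylstilbestrol (DES), a synthetic estrogen. The members are all the POA libraries of DES rats at these ages, picked by region, exposure and age in the sample labels and by no measured value: 15 libraries at PND42 and 15 at PND22, which make 30 of the 210 libraries of the series. The series as a whole covers the POA and the mediobasal hypothalamus of female rats at 3 ages after vehicle, DES or ketoconazole. The DES rats were offspring of Sprague-Dawley dams gavaged with 3, 6 or 12 µg/kg bw/day of DES in corn oil (groups D3, D6 and D12), with dosing from gestation day 7 that paused at delivery and ended at PND22. Exposure therefore ended at the younger age, and the older rats had been untreated for 20 days. Each dose and age had 5 libraries from separate rats, so age was compared between animals. The dams were dosed, and the litter of each rat is not given in the sources used here. Rats of a group may be littermates, and the tests treat them as independent. Vehicle rats, whose dams received corn oil alone, gave 5 POA libraries at each age and are used as a background. All groups shared the strain, the sex and the gavage of the dam with corn oil. The POA was cut out by hand from fresh brain, so the edges of the sample were set by the cuts.

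Between weaning and the weeks after vaginal opening the rodent hypothalamus completes much of its myelination, its inhibitory synapses change their receptor composition, and glia, vessels and neurons leave the growth state of early postnatal life. GnRH neurons receive input from kisspeptin neurons, which relay estradiol feedback through estrogen receptor alpha. Puberty starts as the balance of inputs to GnRH neurons shifts toward stimulation. The age comparison asks which transcripts of the POA moved across this interval in rats exposed to DES, whether the move depended on the dose, and whether it differed from that in vehicle rats.

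Each library was deposited as whole-number read counts per gene. Total counts ranged from 12116064 to 18739874 at PND22, with a median of 14961136, and from 14197063 to 22647562 at PND42, with a median of 19102692, so depth rose with age. Levels are given as CPM, the counts of a gene scaled to 1000000 counts of the library, and a change is the log2 fold change of PND42 over PND22 with its standard error (SE) and dose as a covariate. The quasi-likelihood test of edgeR was used, with p-values adjusted by the Benjamini-Hochberg method over the whole table, and genes with an adjusted p below 0.05 count as called; adjusted p-values below are of this kind.

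The labelled region was checked first. GnRH itself and the GABA synthesis gene Gad2 were present in the POA libraries of both ages, and the summed level of 22 hypothalamic and preoptic identity genes was led by Gad2 in 29 of the 30 DES libraries. The library labelled D6 PND42 replicate 4 was the exception. It held 869 CPM of Pmch, the precursor of melanin-concentrating hormone made in the lateral hypothalamus, against 1.33 to 3.72 CPM in the other PND42 DES libraries. It also held 32.6 CPM of Hcrt (orexin), 43.5 CPM of Hdc (histamine synthesis in the tuberomammillary nucleus) and 678 CPM of Prkcd, a thalamic marker, and only 0.588 CPM of Gnrh1. The vehicle library PND22 replicate 4 was alike, with 1400 CPM of Pmch and 0.794 CPM of Gnrh1. The summed level of the 4 markers of the lateral and posterior hypothalamus was 961 CPM in that D6 library and 1569.5 CPM in that vehicle library. It was 94.3 CPM at most in any other DES library. None of the 3 tested markers was called with all DES libraries, but 1 was called lower without that D6 library. Whether these 2 libraries held tissue of another region or were exchanged with other samples was not tested. An exchange could change the region, age, dose or exposure that their values stand for, depending on the sample it was made with.

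**Figure D1:**
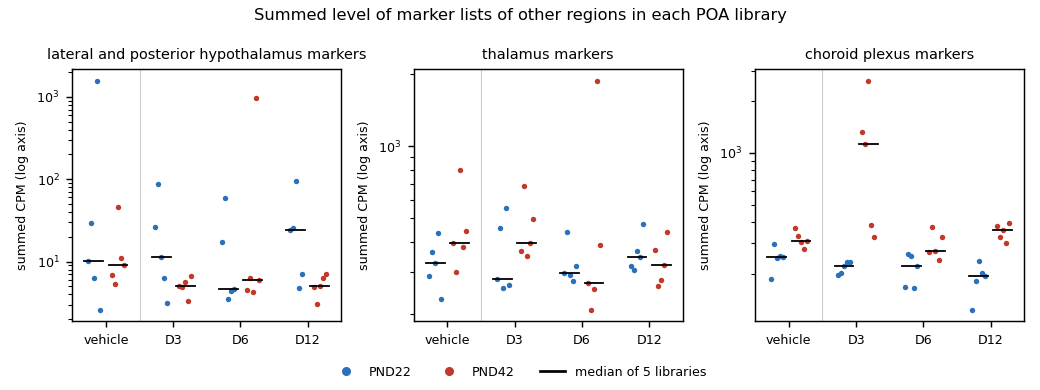
Summed CPM (log axis) of the marker lists of 3 other regions in each POA library, by exposure group and age; points are libraries and black bars the median of 5. D6 PND42 replicate 4 stands at 961 CPM of markers of the lateral and posterior hypothalamus and 1879 CPM of thalamic markers, vehicle PND22 replicate 4 at 1569.5 CPM of the first list, and 3 D3 PND42 libraries at 1133 CPM or more of choroid plexus markers.

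The D3 group also differed at PND42. Transthyretin (Ttr), the most abundant secreted protein of the choroid plexus, was at 717, 616 and 1617 CPM in D3 replicates 1, 2 and 3, at 19.2 CPM in replicate 4 and at 0.378 CPM in replicate 5. It did not pass 30.4 CPM in any D6 or D12 library at PND42, nor 2.45 CPM in any DES library at PND22. Of the 12 tested choroid plexus markers 8 were higher and 1 was lower at PND42, where 27.6% of all tested genes were higher and 28.7% lower. The summed level of the list was 1324, 1133 and 2619 CPM in those 3 libraries against 238 to 394 CPM in the other 12 at PND42. The most abundant marker was Ttr in those 3 libraries and Enpp2, which oligodendrocytes also express, in the other 27. The transcription factor Otx2, a further marker, was not tested. Only 4 choroid plexus markers were higher without D3, and 2 were lower, where 24.9% of all tested genes were higher and 23.5% lower. Each count that leads a paragraph below was therefore also taken without D6 PND42 replicate 4 and without the D3 groups.

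Most tested genes changed with age, in both directions and by less than 2-fold. Of 15100 genes tested, 8501 were called (56.3%), 4171 higher at PND42 (27.6%) and 4330 lower (28.7%), and the median change over all tested genes was -0.01 on the log2 scale. The shares of 27.6% and 28.7% are the background of each list's count. At least 2-fold changes were fewer: 309 genes were called at least 2-fold higher (2.05%) and 188 at least 2-fold lower (1.25%). For 378 genes every PND42 library lay above every PND22 library (2.50%), and for 267 every PND42 library lay below (1.77%). In a principal component analysis of the 500 most variable genes, the first component held 30.4% of the variance and separated all 15 PND22 from all 15 PND42 libraries.

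**Figure D2:**
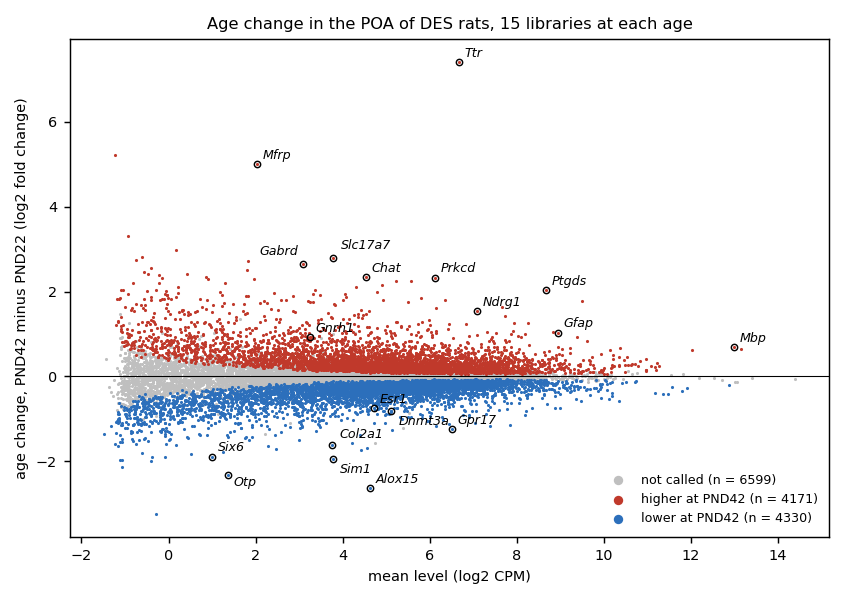
Age change (log2 fold change, PND42 minus PND22) of the 15100 tested genes against their mean level (log2 CPM) in the POA of DES rats; red and blue points are genes called higher and lower, gray points were not called, and rings mark named genes. Called genes lie on both sides of 0 at every level, 4171 above and 4330 below.

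The doses were also fitted one by one. In D3, 5010 of 14326 genes were called (35.0%), 2583 higher (18.0%) and 2427 lower (16.9%). In D6 the count was 3150 of 14415 (21.9%), 1848 higher (12.8%) and 1302 lower (9.03%), and it was 3841 without PND42 replicate 4 and 1991 without PND22 replicate 1. In D12, 6090 of 14609 were called (41.7%), 3060 higher (20.9%) and 3030 lower (20.7%). A common set of 1880 genes was called in all 3 doses with the same sign (12.5% of the genes tested), 1148 higher (7.60%) and 732 lower (4.85%). Without D6 PND42 replicate 4 the pooled call stood at 4463 genes higher (29.4%) and 4344 lower (28.6%), and 96.6% of the genes called with it were called again with the same sign. Without D3 it stood at 3724 higher (24.9%) and 3522 lower (23.5%), and without both at 3806 higher (25.3%) and 3803 lower (25.3%). The share called again with the same sign, among genes tested in both fits, was 80.7% without D3 and 82.7% without D3 and that library.

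Genes of the GnRH network moved in both directions, in shares near those over all tested genes (27.6% higher, 28.7% lower). As in all results here, the extracts are bulk tissue, in which fewer cells of a type and less RNA per cell cannot be told apart. Of 35 tested genes of the puberty and GnRH network, 9 rose, 10 fell and 16 were not called, with a median of -0.02. Gnrh1 (ENSRNOG00000013441), the GnRH precursor, ranged from 4.06 to 10.5 CPM at PND22 with a median of 6.14, and from 0.588 to 22.5 CPM at PND42 with a median of 11.6. The age groups overlapped, and the lowest PND42 value was that of D6 replicate 4. Gnrh1 rose by 0.92 on the log2 scale (SE 0.22, adjusted p = 0.000831), and by 1.02 (SE 0.14, adjusted p = 2.99e-07) without that library.

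Kiss1, the kisspeptin precursor, ranged from 0.635 to 2.1 CPM at PND22 (median 1.14) and from 0.268 to 6.45 CPM at PND42 (median 2.62). The groups overlapped in part, and the D12 libraries, at 2.28 CPM or more at PND42, all lay above their PND22 counterparts. Kiss1 rose by 1.26 (SE 0.27, adjusted p = 0.000206), with changes of 0.46 in D3, 1.45 in D6 and 1.83 in D12. Esr1, which encodes estrogen receptor alpha, ranged from 26.8 to 39.9 CPM at PND22 (median 33.1) and from 5.19 to 34.2 CPM at PND42 (median 20.4). All D3 and D12 libraries at PND42 lay below the lowest PND22 value, whereas D6 overlapped. Esr1 fell by 0.74 (SE 0.15, adjusted p = 0.000162). Pgr (progesterone receptor) was not called at 0.12 (SE 0.11, adjusted p = 0.355), but was without D6 replicate 4 (adjusted p = 0.0448). Not called either was Gal (galanin), at -0.02 (SE 0.14, adjusted p = 0.908), but its sign turned in 13 of 39 alternatives, and it was called higher without D3 and D6 replicate 4, at 0.29 (adjusted p = 0.0302).

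Mkrn3, an imprinted ubiquitin ligase whose loss in humans causes early puberty, ranged from 2.62 to 4.89 CPM at PND22 (median 3.33) and from 1.2 to 2.4 CPM at PND42 (median 1.83). The 2 ages did not overlap in any library. Mkrn3 fell by 0.95 (SE 0.10, adjusted p = 1.42e-09). Lin28b, a repressor of let-7 microRNA processing, fell by 0.92 (SE 0.22, adjusted p = 0.000841), and Dlk1, a paternally expressed Notch-like ligand linked to pubertal timing, fell by 0.48 (SE 0.09, adjusted p = 2.41e-05).

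Receptors and regulators of the same network moved both ways. Sema7a, a semaphorin that guides GnRH axon terminals, rose by 0.99 (SE 0.11, adjusted p = 1.82e-08). The neurokinin B receptor Tacr3 rose by 0.61 (SE 0.11) and its ligand Tac3 by 0.29 (SE 0.12, adjusted p = 0.045, lost in 14 of 39 alternatives), and the homeobox regulator Nkx2-1 rose by 0.51 (SE 0.11). Among the genes that fell were Npffr1, the receptor of RFamide-related peptide, by 0.88 (SE 0.13), the dynorphin receptor Oprk1 by 0.57 (SE 0.10), the prolactin receptor Prlr by 0.60 (SE 0.17) and the growth hormone receptor Ghr by 0.62 (SE 0.08). The largest fall of the list was that of Fezf1, a zinc finger factor needed for GnRH neuron migration and also expressed in the ventromedial nucleus, by 1.64 (SE 0.20, adjusted p = 3.85e-08). 

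**Figure D3:**
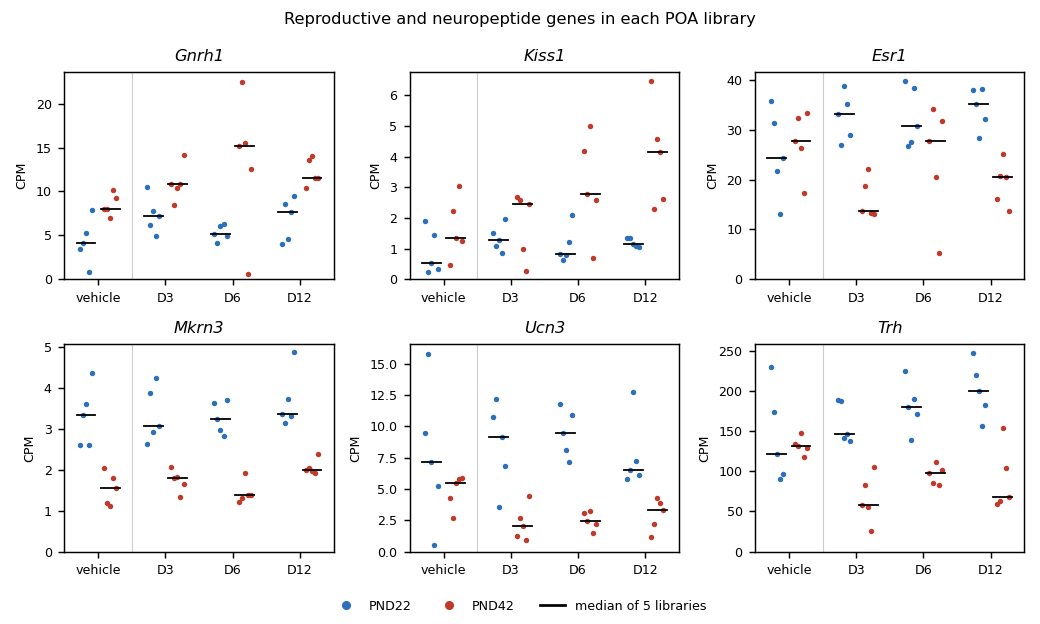
CPM of 6 reproductive and neuropeptide genes in each POA library of the vehicle, D3, D6 and D12 groups at PND22 (blue) and PND42 (red); black bars are medians of 5 libraries. In DES rats Gnrh1 and Kiss1 medians were higher at PND42 and those of Esr1, Mkrn3, Ucn3 and Trh lower, while the vehicle medians of Trh and Esr1 lay close together at both ages.

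Of 23 tested neuropeptide genes of the POA, 11 fell, against 28.7% over all tested genes, 5 rose, a share near the 27.6% over all tested genes, and 7 were not called, with a median of -0.41, and 13 fell and 5 rose without D6 replicate 4, while 9 fell and 5 rose without D3. Ucn3 (urocortin 3, made by perifornical neurons) ranged from 3.58 to 12.8 CPM at PND22 (median 8.13) and from 0.938 to 4.45 CPM at PND42 (median 2.41). Only 1 PND22 library, D3 replicate 3 at 3.58 CPM, lay within the PND42 range. Ucn3 fell by 1.70 (SE 0.21, adjusted p = 4.44e-08).

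Trh, the thyrotropin-releasing hormone precursor, ranged from 138 to 248 CPM at PND22 (median 183) and from 26.1 to 154 CPM at PND42 (median 83.5), and fell by 1.09 (SE 0.14, adjusted p = 1.66e-07). Calcr, the calcitonin receptor that marks medial preoptic neurons of maternal behavior, ranged from 306 to 462 CPM (median 402) and then from 55.8 to 363 CPM (median 203), and fell by 0.82 (SE 0.15, adjusted p = 2.36e-05). At PND42, 1 library of Trh and 2 of Calcr lay within the PND22 range. Brs3, the bombesin-like receptor of preoptic thermoregulatory neurons, fell by 1.19 (SE 0.12), Adcyap1, which encodes the peptide PACAP, by 0.96 (SE 0.12), and somatostatin (Sst) by 0.77 (SE 0.16).

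The largest rise of the list was that of neurotensin. Nts ranged from 13.6 to 43.9 CPM at PND22 (median 28.8) and from 16 to 75 CPM at PND42 (median 63.3). It rose by 1.11 (SE 0.14, adjusted p = 8.86e-08). Oxytocin (Oxt) fell by 0.92 (SE 0.28, adjusted p = 0.00604), a call that did not hold without D3, where the change was -0.60 (adjusted p = 0.0666). Vasopressin (Avp) was not called at -0.85 (SE 0.40, adjusted p = 0.0716), but was without D6 replicate 4, at -0.97 (adjusted p = 0.0334).

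Myelin genes rose together, and most tested markers of the stage just before myelination fell. Of 22 tested genes of mature oligodendrocytes and myelin 19 rose and none fell, with a median of 0.70 against -0.01 over all tested genes. Mbp, myelin basic protein, ranged from 2687 to 8969 CPM at PND22 (median 6447) and from 8046 to 13249 CPM at PND42 (median 9626). The overlap was limited to the 2 highest PND22 libraries, both of D3. Mbp rose by 0.68 (SE 0.13, adjusted p = 3.28e-05), with changes of 0.37 in D3, 0.52 in D6 and 1.19 in D12, and the test of a difference among doses did not call it.

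Larger changes than that of Mbp were seen for Tf (transferrin, the iron carrier of oligodendrocytes), which ranged from 208 to 461 CPM at PND22 and from 881 to 1307 CPM at PND42 and rose by 1.79 (SE 0.10, adjusted p = 1.02e-14). Hapln2, a matrix protein of the node of Ranvier, rose by 1.80 (SE 0.14), the gap junction protein Gjb1 by 1.47 (SE 0.12), and carbonic anhydrase Car2 by 1.43 (SE 0.08). For Tf, Hapln2, Gjb1 and Car2 every PND42 library lay above every PND22 library. Ndrg1, a Schwann cell and oligodendrocyte gene, and Qdpr, the dihydropteridine reductase abundant in oligodendrocytes, had the smallest adjusted p-values of all tested genes (both 4.71e-19) and were chosen for that after their values were seen. Ndrg1 ranged from 58.2 to 95.9 CPM at PND22 and from 183 to 227 CPM at PND42, a rise of 1.54 (SE 0.06), and Qdpr from 83.5 to 100.3 CPM and from 155 to 210.4 CPM, a rise of 0.98 (SE 0.04).

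Markers of newly formed oligodendrocytes fell more often than they rose. Of 13 tested 8 fell, against 28.7% over all tested genes, and 3 rose, near the 27.6% over all, with a median of -0.41. The genes named next are among those that fell, and the 3 that rose are not named here. Gpr17, the orphan receptor of committed precursors that leave the cycle, ranged from 95.3 to 147.8 CPM at PND22 (median 134.3) and from 35.3 to 65.6 CPM at PND42 (median 54.5), without overlap. It fell by 1.24 (SE 0.07, adjusted p = 1.08e-14). Casr, the calcium-sensing receptor, fell by 0.91 (SE 0.10) and Enpp6, a choline phosphodiesterase of differentiating cells, by 0.79 (SE 0.11). Precursor markers changed little: 6 of 13 fell and 2 rose, with a median of -0.15, and Pdgfra, their defining receptor, fell by 0.18 (SE 0.06, adjusted p = 0.00966). That count depended on D3, since only 2 precursor genes fell without it. Of 21 cell division genes 6 fell, a share near the 28.7% over all tested genes, and 3 rose. Without D6 replicate 4 the list had 4 lower and 4 higher, and without that library and D3 it had 3 lower and 2 higher.

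**Figure D4:**
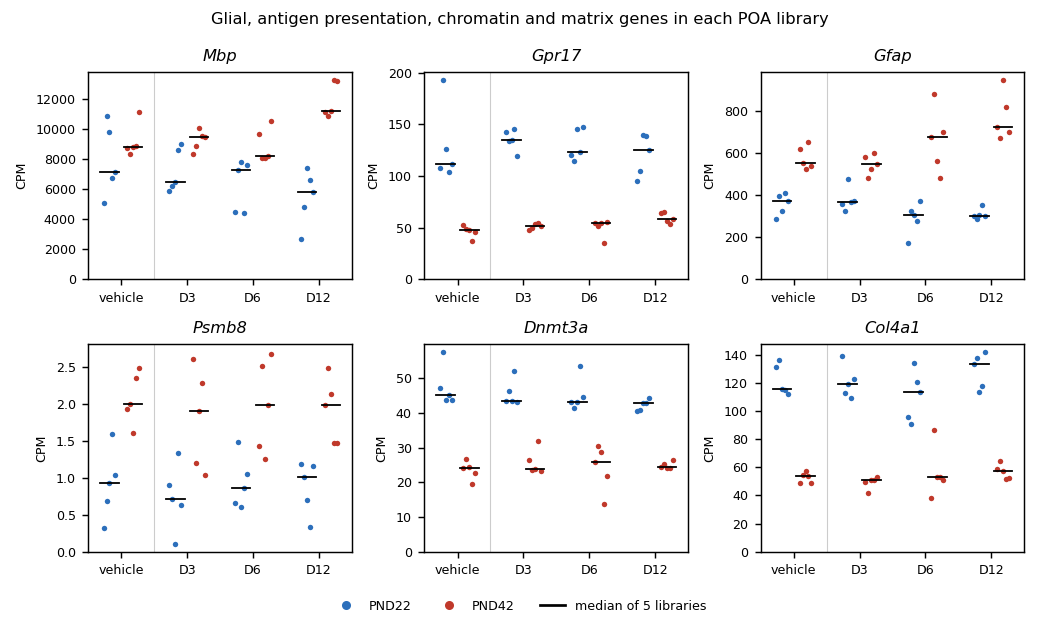
CPM of 6 genes of myelin (Mbp), differentiating oligodendrocytes (Gpr17), astrocytes (Gfap), the immunoproteasome (Psmb8), DNA methylation (Dnmt3a) and the vascular basement membrane (Col4a1) in each POA library at PND22 (blue) and PND42 (red); black bars are medians of 5 libraries. Gpr17, Dnmt3a and Col4a1 were lower at PND42 in every DES library than in any at PND22, Gfap was higher, and Mbp and Psmb8 overlapped.

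Astrocyte genes rose more often than they fell: 11 of 18 tested rose and 1 fell, with a median of 0.17. Gfap, the intermediate filament of astrocytes, ranged from 172 to 477 CPM at PND22 (median 323) and from 479 to 946 CPM at PND42 (median 669). The ages met but did not overlap. Gfap rose by 1.03 (SE 0.11, adjusted p = 2.55e-09), with changes of 0.53, 1.20 and 1.38 in the D3, D6 and D12 groups. The calcium-binding protein S100b rose by 0.67 (SE 0.05, adjusted p = 2.2e-11) and glutamine synthetase (Glul) by 0.37 (SE 0.07).

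Microglial genes mostly rose. Of 17 tested 11 rose and 2 fell, with a median of 0.19. The complement subunit C1qa rose by 0.43 (SE 0.08, adjusted p = 6.94e-05) and the lipid receptor Trem2 by 0.55 (SE 0.10, adjusted p = 4.49e-05). The 2 that fell were the surface receptors P2ry12, by 0.25 (SE 0.09), and Cx3cr1, by 0.20 (SE 0.07), and neither was called without D3. C3, the central complement component, is among the genes named below for the size of their increase. It ranged from 1.93 to 10.7 CPM at PND22 (median 3.26) and from 8.91 to 28.6 CPM at PND42 (median 15.5), and rose by 2.03 (SE 0.18, adjusted p = 1.14e-10).

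Genes of MHC class I presentation and of the interferon response rose almost without exception. Of 19 tested 17 rose and none fell, with a median of 0.78, and the same 17 to 0 split was found without D6 replicate 4. Psmb8, a catalytic subunit of the immunoproteasome, ranged from 0.107 to 1.48 CPM (median 0.86) and then from 1.04 to 2.68 CPM (median 1.98), and rose by 1.20 (SE 0.21, adjusted p = 2e-05). Its partner Psmb9 rose by 0.81 (SE 0.11), the interferon-induced Ifit3 by 1.48 (SE 0.25), Isg15, a ubiquitin-like modifier, by 1.19 (SE 0.20), the membrane tether Bst2 by 1.01 (SE 0.15), and B2m, the light chain of MHC class I, by 0.21 (SE 0.05, adjusted p = 0.000762).

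The promoters of these genes were read, as were those of the other gene lists. RefSeq promoter windows (GRCr8, 250 bases before to 50 after the start) were found for 14 of the 19 genes. The interferon response motif, GAAA and GAAA with any 2 bases between them on either strand, was in 8 of the 14 (57.1%) and in 3.92% of all 33469 promoter windows. It was among 14 motifs counted. A gene counted if any of its windows held the motif, whereas the share over all is per window. The shares are therefore unlike measures, since a gene with several windows has more chances of a match. The windows below show it in 4 genes that rose, each written 5′ to 3′ on the strand of the gene, with motif matches in capitals. In Tap1 and Ifit3 the match is on the opposite strand and reads as its reverse complement, and Bst2 holds a pair of overlapping matches.
Tap1 (chr20:4668635-4668684, minus strand): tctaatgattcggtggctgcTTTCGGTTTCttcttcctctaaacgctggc
B2m (chr3:129549160-129549209, plus strand): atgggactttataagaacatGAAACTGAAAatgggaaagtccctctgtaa
Ifit3 (chr1:241527262-241527311, plus strand): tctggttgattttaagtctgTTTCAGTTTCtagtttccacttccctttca
Bst2 (chr16:18255063-18255118, minus strand): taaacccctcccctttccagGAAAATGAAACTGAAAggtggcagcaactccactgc
A match is a stretch of letters and does not show that a factor bound it.

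Among transmitter receptor genes more fell than rose. Of 24 tested glutamate receptor genes 12 fell and 1 rose, with a median of -0.18, and 13 fell and 2 rose without D6 replicate 4, and 14 fell and 2 rose without D3. The obligate NMDA subunit Grin1 fell by 0.30 (SE 0.05), the NMDA subunit Grin2d, which is typical of the immature brain, by 0.50 (SE 0.07), and the kainate subunit Grik1 by 0.41 (SE 0.06). The 1 that rose with all DES libraries was Grm3, a metabotropic receptor also made by astrocytes, which ranged from 19.7 to 44.7 CPM at PND22 and from 53.8 to 102 CPM at PND42 and rose by 1.27 (SE 0.08, adjusted p = 2.94e-14).

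Of 16 tested GABA receptor genes 8 fell and 3 rose, against 28.7% lower and 27.6% higher over all tested genes. Gabre, which encodes the epsilon subunit concentrated in the hypothalamus, ranged from 66.2 to 104 CPM at PND22 (median 86.2) and from 18.4 to 59.6 CPM at PND42 (median 40.9), without overlap. Gabre fell by 1.05 (SE 0.11, adjusted p = 2.46e-09) and Gabrg3 by 0.89 (SE 0.10). Gabrd, the extrasynaptic delta subunit and also a thalamic marker, rose by 2.64 (SE 0.51) with D6 replicate 4, at 109 CPM, far above the rest, and by 1.79 (adjusted p = 1.05e-06) without it.

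Genes of perineuronal nets and interneuron maturation had 10 of 17 members higher and 3 lower, and 11 higher and 1 lower without D3. Pvalb (parvalbumin, of fast-spiking interneurons) ranged from 2.48 to 20 CPM at PND22 (median 5.13) and from 9.87 to 44.5 CPM at PND42 (median 22.8), and rose by 1.86 (SE 0.26, adjusted p = 4.87e-07). The neurofilament heavy chain Nefh rose by 0.93 (SE 0.09). Among genes of immature neurons and axon growth 11 of 23 fell, against 28.7% over all tested genes, and 5 rose, near the 27.6% over all. Doublecortin (Dcx), of migrating neurons, ranged from 76.1 to 103 CPM at PND22 and from 23.6 to 70.8 CPM at PND42, without overlap, and fell by 0.56 (SE 0.08, adjusted p = 1.81e-06). Stmn1 (stathmin), of the same list, rose by 0.47 (SE 0.06).

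Immediate early genes, which neurons transcribe within minutes of activity, had a median of 0.83, with 14 of 16 higher and 1 lower. By dose the median was 0.59 for D3 with 5 genes higher and 1 lower, 0.54 for D6 with 3 higher, and 1.23 for D12 with 14 higher. Over all genes tested in D3, D6 and D12, 18.0%, 12.8% and 20.9% were higher. No member was called in the test of a difference among doses. Arc, a synaptic plasticity gene, ranged from 7.8 to 15.2 CPM at PND22 (median 9.77) and from 10.4 to 69.9 CPM at PND42 (median 21.3). The PND42 libraries were spread over a wider range and overlapped the PND22 range at its upper end. Arc rose by 1.57 (SE 0.20, adjusted p = 8.24e-08), Fos by 0.81 (SE 0.19, adjusted p = 0.000614) and Junb by 0.85 (SE 0.18). The 1 that fell was Nr4a2, also a marker of claustrum and dopamine neurons, by 0.28 (SE 0.08), and it was not called without D3. In vehicle rats the median of the list was 0.19, and no member was called in the test of the difference between DES and vehicle.

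RefSeq promoter windows were found for 11 of the 16 immediate early genes. The cyclic AMP response element TGACGTCA, a palindrome that reads alike on both strands, was in 3 of the 11 (27.3%) and in 1.83% of all windows. Here too the first share is per gene, over any of its windows, and the second per window. Windows of Ier2 and Btg2 are shown, with the motif in capitals. In all, 14 motifs were counted, and the pair described here was picked after the counts were seen.
Ier2 (chr19:40399287-40399334, plus strand): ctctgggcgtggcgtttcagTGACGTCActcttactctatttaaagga
Btg2 (chr13:48087864-48087911, minus strand): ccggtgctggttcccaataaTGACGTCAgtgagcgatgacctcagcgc

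Of 15 tested imprinted growth genes 11 fell and none rose, with a median of -0.42. Plagl1, a zinc finger regulator of the imprinted network, ranged from 22.5 to 32.9 CPM at PND22 and from 12.6 to 21.9 CPM at PND42, without overlap, and fell by 0.69 (SE 0.08, adjusted p = 2.62e-08). Magel2, a Prader-Willi region gene expressed in the hypothalamus, fell by 0.71 (SE 0.07), the growth factor receptor adaptor Grb10 by 0.54 (SE 0.06) and Peg3 by 0.42 (SE 0.07). Igf2, made in the meninges and choroid plexus, was not called at 0.58 (SE 0.26, adjusted p = 0.0595), but was in 9 of 39 alternatives, each without 1 library (lowest adjusted p 0.0228).

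Among genes of DNA methylation and Polycomb repression 12 of 19 fell and 3 rose. Dnmt3a, the de novo methyltransferase of postnatal neurons, ranged from 40.5 to 53.4 CPM at PND22 (median 43.3) and from 13.7 to 31.8 CPM at PND42 (median 24.4), without overlap. It fell by 0.81 (SE 0.07, adjusted p = 5.41e-11). The demethylating enzyme Tet3 fell by 0.50 (SE 0.09). The Polycomb reader Cbx7 rose by 0.53 (SE 0.04, adjusted p = 8.17e-12) and Ezh1, the methyltransferase of non-dividing cells, rose by 0.35 (SE 0.04), while its paralog Ezh2 fell by 0.24 (SE 0.10, adjusted p = 0.0317), a call lost in 19 of 39 alternatives, in most of them by leaving out a single library.

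Matrix genes fell more often than they rose. Of 21 tested collagen and matrix genes 11 fell and 2 rose, with a median of -0.36. The basement membrane chain Col4a1 ranged from 91.2 to 143 CPM at PND22 (median 119.9) and from 38 to 86.4 CPM at PND42 (median 52.8), without overlap, and fell by 1.13 (SE 0.08, adjusted p = 4.99e-13). Its partner Col4a2 fell by 1.17 (SE 0.09) and nidogen (Nid1) by 0.67 (SE 0.11). Of 17 endothelial and pericyte markers 6 fell and 5 rose, near the shares over all tested genes (28.7% and 27.6%). The pericyte channel subunit Abcc9 fell by 0.98 (SE 0.08, adjusted p = 8.43e-12), as did the pericyte gene Rgs5, by 0.75 (SE 0.09). Both do not stand for the list, whose median was -0.05 and whose 5 rising members are not named here. Meningeal fibroblast markers rose more often than they fell, with 8 of 13 higher and 1 lower. Ogn (osteoglycin) rose by 1.81 and Crabp2, a retinoic acid carrier, by 1.36, and the 1 that fell was Pdgfrb, also a pericyte receptor, by 0.56 (SE 0.08). In D3, D6 and D12 fitted apart the medians of this list were 0.42, 0.85 and 0.64. Called higher were 1, 1 and 6 members, where 18.0%, 12.8% and 20.9% of all genes tested were. Ptgds, prostaglandin D synthase of the meninges and choroid plexus, ranged from 23.4 to 738 CPM at PND22 (median 59.7) and from 245 to 1761 CPM at PND42 (median 477), and rose by 2.03 (SE 0.45, adjusted p = 0.000326). The part of attached meninges in these values was not tested.

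Of 25 tested genes of oxidative phosphorylation 23 rose and none fell, against 27.6% and 28.7% over all tested genes, with a median of 0.29, for example Cox4i1 by 0.42 (SE 0.04) and Ndufb8 by 0.43 (SE 0.05). Of 23 cholesterol synthesis genes 16 rose, among them Msmo1 by 0.60 (SE 0.05) and Insig1 by 0.60 (SE 0.07). A single gene of the list fell, and none did without D3. In the list of steroid synthesis and steroid response 12 of 18 rose and 1 fell. Sgk1, a kinase induced by glucocorticoids and also made by oligodendrocytes, ranged from 27.6 to 68.5 CPM at PND22 (median 32.5) and from 62.9 to 196 CPM at PND42 (median 113), and rose by 1.81 (SE 0.16, adjusted p = 9.64e-11). Hsd11b1, which regenerates active glucocorticoid, rose by 1.03 (SE 0.11), and Srd5a1, the steroid 5-alpha reductase, by 0.80 (SE 0.07). Of 17 thyroid hormone response genes 9 rose and 3 fell, and 7 rose and 2 fell without D3. The list holds Ttr, whose highest values were those of 3 D3 libraries. Its members included Thrsp, a classic thyroid hormone target, at 1.98 (SE 0.25, adjusted p = 1.07e-07) and the hormone-induced factor Klf9 at 0.58 (SE 0.08). Of 16 clock genes 8 rose and 4 fell, the latter near the 28.7% over all tested genes, with the output factor Dbp higher by 0.71 (SE 0.08) and the core activator Arntl lower by 0.41 (SE 0.06).

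**Figure D5:**
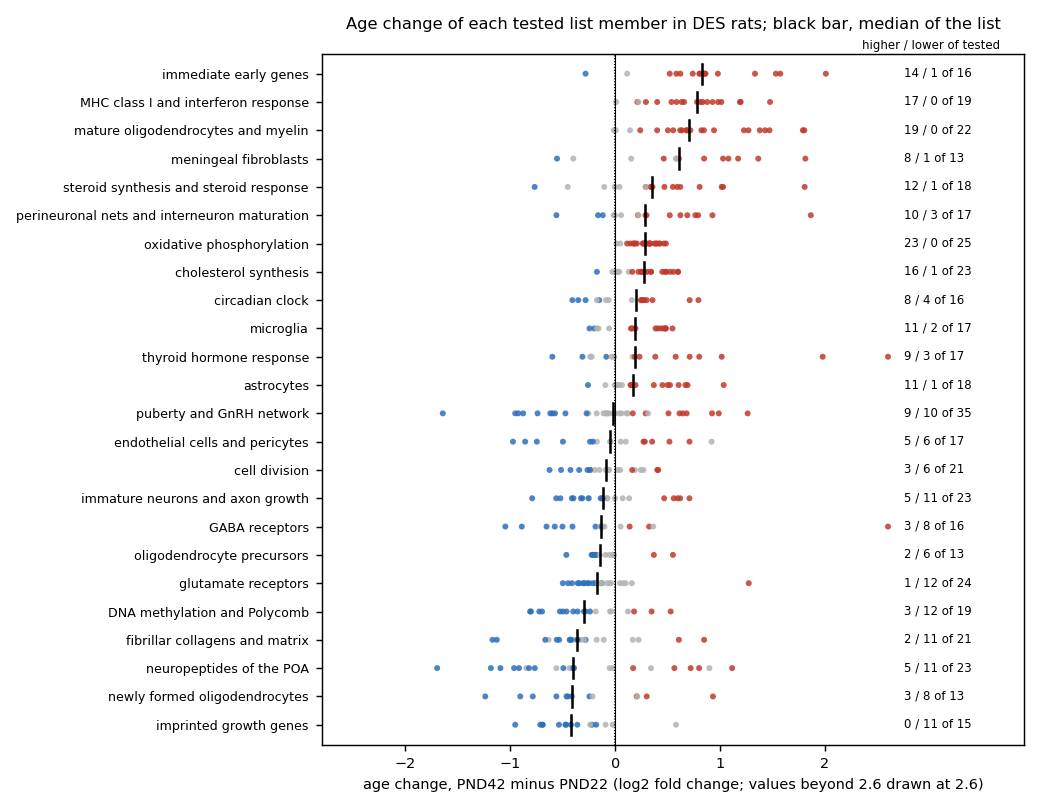
Age change (log2 fold change, PND42 minus PND22) of each tested member of 24 gene lists in DES rats, ordered by the list median (black bar); red members were called higher, blue lower, gray not called, and the counts at the right give higher and lower of those tested. Immediate early, MHC class I and interferon, and myelin genes have the highest medians (0.83, 0.78 and 0.70) and imprinted growth genes the lowest (-0.42).

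The 15 largest increases were taken among called genes with a mean log2 CPM of at least 1, a gene symbol and the same sign in each dose, and held markers of regions next to the POA. Of these, 14 are named here: Mfrp, Slc17a7, Gabrd, Ano2, Chat, Prkcd, Gbx1, Ngfr, Cryab, Scn4b, Ptgds, C3, Anln and Thrsp. Mfrp, expressed in ciliary and choroid epithelium, ranged from 0 to 0.854 CPM at PND22 and from 0.681 to 56.4 CPM at PND42, and its fitted change was 5.00 (SE 0.61) with D3 and 3.74 without. Slc17a7, the vesicular glutamate transporter of cortex and thalamus, ranged from 0.472 to 9.31 CPM (median 1.97) and then from 1.78 to 87.9 CPM (median 8.16), with the highest values in D3 replicates 1 and 4 and D6 replicate 4. Its change was 2.80 (SE 0.59, adjusted p = 0.000167), and 1.04 (adjusted p = 0.0587) without D3 and D6 replicate 4. Prkcd changed by 2.33 (SE 0.38), and by 1.68 (adjusted p = 1.71e-07) without D6 replicate 4. Of the 10 thalamic markers tested 3 rose (Gabrd, Prkcd, Ptpn3), a share near the 27.6% over all tested genes, and 1 fell, against 28.7%. Without D3 and D6 replicate 4, 2 rose and 2 fell, where 25.3% of all tested genes rose and 25.3% fell. In that fit Ptpn3 was not called, at 0.56 (adjusted p = 0.147) against 1.81 with all DES libraries. The sum of the thalamic markers ranged from 257 to 556 CPM at PND22 and from 207 to 1879 CPM at PND42, its most abundant gene was Calb2 in 29 libraries, and none was at 0 in any library. Of 9 markers of cortex and hippocampus 4 rose and 2 fell, against 27.6% and 28.7% over all tested genes. But 2 rose and 1 fell without D3, and 1 rose and 2 fell without D3 and D6 replicate 4. Their sum was highest in D3 PND42 replicates 1 and 4, at 627 and 708 CPM, against a median of 416 CPM over the 15 DES libraries at PND42. Of 12 markers of striatum and septum 5 rose and 4 fell, of 10 of ependyma and tanycytes 4 rose and 2 fell, and of 7 of blood 3 fell and none rose, where 27.6% of all tested genes rose and 28.7% fell. Of 4 tested pituitary markers 2 were higher (Pomc, Prl) and 1 lower, but Pomc, at 36.1 CPM in D6 replicate 4, changed by 1.67 with that library and was not called without it, at 0.63 (adjusted p = 0.0711). The part of thalamic, cortical and pituitary tissue in these increases was not tested.

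Cryab and Anln, both myelin-associated, rose without overlap of the ages. Cryab, a small heat shock protein, ranged from 8.34 to 22.6 CPM at PND22 and from 43.4 to 85.7 CPM at PND42, a rise of 2.24 (SE 0.13, adjusted p = 1.47e-14). Anln rose by 1.99 (SE 0.15).

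A further 3 of these mark basal forebrain cholinergic neurons, which lie beside and within the POA. Chat, the acetylcholine synthesis enzyme, ranged from 0.63 to 24.9 CPM at PND22 (median 5.89) and from 0.481 to 72.7 CPM at PND42 (median 37.1). Apart from D6 replicate 4, the lowest of all, only D12 replicate 3 at 20.2 CPM and D3 replicate 5 at 22.1 CPM lay within the PND22 range at PND42. Chat rose by 2.34 (SE 0.38, adjusted p = 5.81e-06), the neurotrophin receptor Ngfr by 2.24 (SE 0.35), and the homeobox gene Gbx1 by 2.29 (SE 0.34). Slc5a7 (choline transporter), Slc18a3 (vesicular acetylcholine transporter) and Lhx8, named after their values were seen, rose by 1.86 (SE 0.28), 1.92 (SE 0.31) and 1.38 (SE 0.29). In vehicle rats the changes were 0.33 for Chat, 0.28 for Ngfr and -0.18 for Slc18a3, where Chat at PND22 was at 44.8 and 65.8 CPM in replicates 3 and 5 and at 11.3 CPM or less in the other 3. The difference from DES rats was not called for Chat (adjusted p = 0.228), Ngfr (0.209) or Slc18a3 (0.135), and was for Ngfr and Slc18a3 in 2 of 47 alternatives, both without the 2 libraries D6 PND42 replicate 4 and vehicle PND22 replicate 4.

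The 15 largest decreases by the same rule were Alox15, Otp, Sim1, Six6, Tbxt, L3mbtl1, Ucn3, Pgr15l, Fezf1, Col2a1, Fam227a, Slc4a1, Col20a1, Srpk3 and Col7a1. Alox15, a lipoxygenase of fatty acid oxidation, ranged from 19.5 to 75.4 CPM at PND22 (median 39.5) and from 4.52 to 9.25 CPM at PND42 (median 6.86). No library overlapped, and the fall was 2.63 (SE 0.16, adjusted p = 6.05e-14), with -2.66, -2.70 and -2.50 for D3, D6 and D12. Otp and Sim1, the homeobox and bHLH factors of paraventricular and supraoptic neurons, fell by 2.32 (SE 0.28, adjusted p = 3.53e-08) and 1.94 (SE 0.22, adjusted p = 1.45e-08). Sim1 ranged from 14.8 to 33.4 CPM at PND22 and from 0.603 to 13.7 CPM at PND42, without overlap. Six6, a factor of the suprachiasmatic nucleus, fell by 1.89 (SE 0.22), and of 10 suprachiasmatic markers 5 fell and none rose. Of the 22 hypothalamic and preoptic identity genes 10 fell, against 28.7% over all tested genes, and 6 rose, near the 27.6% over all. Those that rose include Moxd1, a marker of the sexually dimorphic nucleus, by 0.80 (SE 0.17), and Meis2 by 1.09 (SE 0.21). Of the list 7 fell and 6 rose without D3, and 8 fell and 8 rose without D3 and D6 replicate 4. The sum of the 22 genes ranged from 1829 to 2191 CPM at PND22 and from 1016 to 2034 CPM at PND42. The part of the extent of the dissected tissue at each age was not tested.

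The age change was then compared among doses. Of 15100 genes 1 was called for an age by dose interaction (0.00662%), AC127084.5, whose change was 0.97 in D3, 0.28 in D6 and 0.14 in D12 (adjusted p = 0.0224). The call was lost with replicate number as a block and without D3 PND22 replicate 1. At an unadjusted p under 0.05 there were 2341 genes (15.5%), and a likelihood ratio test in DESeq2 called 147. Without D6 replicate 4 edgeR called 9 genes, AC127084.5 and Tmem108, Tmem161b, Ppdpf, Tardbp, Arhgap23, Nacc2, Rps29 and Fads2.

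The last comparison set the age change of DES rats beside that of vehicle rats. Of 8495 genes called in DES rats and tested with vehicle, 91.4% had the same sign in vehicle, with a median absolute change of 0.32 in DES and 0.26 in vehicle. These genes were picked by their call in DES rats, a choice that raises the DES median. The medians therefore do not compare the size of the change between the exposures. The share with the same sign over all tested genes was not taken. In the fit of all 8 groups 4038 of 15168 genes were called for age in vehicle rats (26.6%), from 5 libraries at each age. The difference between DES and vehicle was called for 9 of 15168 genes (0.0593%), 9 with a higher change in DES (0.0593%) and 0 with a lower one (0%), and 1933 genes (12.7%) had an unadjusted p under 0.05. They were Uck2, Nrgn, Bcar1, Mn1, Fbxo2, Lnp1, Nfic, Bsx and Gadd45a. The count rested on single libraries, with 0 genes called without vehicle PND22 replicate 3 and 35 without D6 PND42 replicate 2.

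Nrgn (neurogranin, a calmodulin-binding protein of postsynaptic sites) had vehicle values of 89.04 to 109.5 CPM at PND22 and 55.01 to 63.4 CPM at PND42, without overlap. In DES rats it ranged from 63.8 to 95.6 CPM at PND22 and from 45.02 to 120.2 CPM at PND42, with the ages overlapping. The change was -0.66 in vehicle and 0.24 in DES, a difference of 0.90 (SE 0.17, adjusted p = 0.023). Nrgn is also one of the markers of cortex and hippocampus, whose summed level at PND42 was 265 to 396 CPM in vehicle and 224 to 708 CPM in DES libraries. Without D3, D6 PND42 replicate 4 and vehicle PND22 replicate 4 the difference was 0.82 (adjusted p = 0.0357), and the call was lost in 5 alternatives, each without 1 vehicle library. Mn1, a transcriptional coregulator, changed by -0.52 in vehicle and 0.57 in DES (difference 1.09, SE 0.21, adjusted p = 0.023), and Uck2, a pyrimidine salvage kinase, by -0.68 and -0.09 (difference 0.59, SE 0.11, adjusted p = 0.023).

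Lnp1 lay between 0.915 and 1.98 CPM at PND22 and 1.12 and 2.11 CPM at PND42 in vehicle rats, and between 0.28 and 1.19 CPM and 1.32 and 3.62 CPM in DES rats. The DES ages did not overlap while the vehicle ages did, and the difference was 1.61 (SE 0.31, adjusted p = 0.023). Bsx, a homeobox gene of the arcuate and premammillary nuclei, was at 5.40 CPM in vehicle PND22 replicate 4 and at or under 0.513 CPM in the other vehicle libraries, and its call was lost without that library and D6 PND42 replicate 4 (adjusted p = 0.367). Without both of these libraries 25 genes were called, among them Slc18a3 (difference 2.51, adjusted p = 0.0181), Ngfr (2.40, adjusted p = 0.0461), the interneuron factor Lhx6 (1.61, adjusted p = 0.0343) and the vesicular GABA transporter Slc32a1 (0.68, adjusted p = 0.0223).

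For Esr1, Tacr3 and Gnrh1 the test called no difference from vehicle. Esr1 changed by 0.13 in vehicle and fell in DES rats (adjusted p of the difference 0.220), Tacr3 changed by -0.43 in vehicle and rose in DES rats (adjusted p 0.0714), and Gnrh1 had changes of 0.96 and 0.93 (adjusted p 0.984). The sign of the Gnrh1 difference, -0.03, turned in 9 of 47 alternatives, to 0.33 without D6 PND42 replicate 4 and vehicle PND22 replicate 4, at 0.588 and 0.794 CPM, and to 0.55 without these and D3, and none of the 47 called it. No difference was called for the glial genes Mbp, at 0.22 in vehicle, and Gpr17, at -1.46 in vehicle. The difference of Tacr3 was called in 6 of 47 alternatives, DESeq2 and a fit of all 70 POA libraries among them, with adjusted p-values of 0.0138 to 0.175 over all of them. These differences rest on 5 vehicle libraries at each age, and a p-value above the threshold does not show that the changes were alike.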

How the data were processed

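POA tissue of female rats was sequenced as polyadenylated RNA in stranded libraries of paired reads. The authors converted the base calls (bcl2fastq 2.20 per the labels), aligned reads to Rnor 6.0 with STAR in the nf-core pipeline and counted them per Ensembl gene with featureCounts, and the deposited table holds raw counts for 32883 genes. The strand setting and the treatment of reads from near-identical genes are not given in the sources used here. The labels number the samples within a group without tying them across ages, and p-values measure the spread between these libraries.

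From the counts, genes were kept with filterByExpr (minimum count 10), normalised by TMM and tested with edgeR 4.0.16 (quasi-likelihood, R 4.3.3), with age and dose in the model over the 30 libraries. The doses were fitted apart for the values by dose. The age by dose interaction used the same 30 libraries, and the age by exposure interaction used these and 10 vehicle libraries, with the mean change of the 3 doses set against that of vehicle. A gene was called at a Benjamini-Hochberg adjusted p-value under 0.05 over all genes tested. CPM are counts scaled to a library total of 1000000, before TMM. In the smallest library of each age 3 counts are 0.248 CPM (PND22) and 0.211 CPM (PND42), and intervals of counting are not given since reads are not independent molecules.

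Named genes were the 15 largest increases and 15 largest decreases among called genes with a mean log2 CPM of at least 1, a gene symbol other than a clone or locus name and the same sign in all doses, with Gnrh1, Kiss1, Esr1, Pgr and Gal, the leading members of each list and the genes of the interactions. The libraries were picked by their labels, and this choice and that of the gene lists were made with earlier results of these data known. DESeq2 1.42.0 size factors and tests, no filter, a replicate block, age without dose, a 2-fold threshold, all 70 POA libraries of both ages and each library left out were the alternatives, and the sets without D6 PND42 replicate 4 (with vehicle PND22 replicate 4 where vehicle was used) and without D3 were added after seeing the data. Within the groups of 5 used here no libraries were duplicates, and libraries of different groups were not compared for this. The scripts were tested on simulated data. Promoter windows are from RefSeq (GRCr8), matched by symbol. A few members of the lists and of the named genes are not reported here.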

Additional observations from a re-analysis of the deposited data

Results flagged for a closer look

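Among 35 named genes in 6 groups of 5 DES libraries, 210 groups in all, 15 had a library far from the other 4, where chance gives about 10.5 (1 in 20). Of these, 6 came from D6 PND42 replicate 4. In that library Slc17a7 was at 86.3 CPM (others 1.78 to 7.62), Gabrd at 109 CPM (1.41 to 6.49) and Prkcd at 678 CPM (31.0 to 60.4). Scn4b was at 70.3 CPM (22.0 to 32.0), Fezf1 at 6.79 CPM (1.43 to 2.67) and Gbx1, of cholinergic neurons, at 0.321 CPM (6.33 to 8.18).

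A further 3 came from D6 PND22 replicate 2, with Slc17a7 at 4.65 CPM (others 1.41 to 2.24), Prkcd at 31.7 CPM (15.8 to 20.3) and Ptgds at 738 CPM (39.2 to 79.3). In D12 PND22, Prkcd was at 31.9 CPM in replicate 5 (13.7 to 17.9), and Ptgds at 277 CPM (23.4 to 89.0) and Ucn3 at 12.8 CPM (5.81 to 7.22) in replicate 3. At PND42, Six6 was at 1.98 CPM in D12 replicate 3 (0.298 to 0.760), Col7a1 at 1.01 CPM in D12 replicate 4 (1.37 to 1.50) and Col20a1 at 6.91 CPM in D6 replicate 2 (2.73 to 3.86).

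The age change differed between DES and vehicle rats for 9 genes by the interaction term. Of 47 alternatives the call was lost in 21 for Gadd45a, 10 for Nfic and 8 for Lnp1. It was lost in 3 for Uck2, 4 for Bcar1, and 5 each for Nrgn, Mn1 and Fbxo2. For Bsx it was lost in 15 of 46. On the log2 scale, the change in DES minus that in vehicle was 0.59 for Uck2, 0.90 for Nrgn, 0.50 for Bcar1, 1.09 for Mn1 and 0.70 for Fbxo2. It was 1.61 for Lnp1, 0.65 for Nfic, 5.24 for Bsx and 0.50 for Gadd45a. Bsx had a median of 0 CPM in DES rats at PND22, so its fitted difference is no measure of size. The age change differed among doses for AC127084.5 (adjusted p = 0.0224 by edgeR's interaction test), a call lost with the replicate block and without D3 PND22 replicate 1.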

How the results depend on the processing

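The count of 8501 age changes lay between 8238 and 8807 with 1 library left out at a time, and was 497 with a 2-fold threshold. The count in D6, 3150, lay between 1991 (without D6 PND22 replicate 1) and 3841 (without D6 PND42 replicate 4), that in D3 between 4121 and 5146 and that in D12 between 5337 and 6033. The age by dose interaction, with 1 call, had 147 in DESeq2, 9 without the region outlier (D6 PND42 replicate 4) and 0 with the replicate block (2232 genes at an unadjusted p under 0.05), and 0 to 45 with 1 library left out, the 45 without D3 PND42 replicate 5. The age by exposure interaction, with 9 calls, had 100 in DESeq2, 59 with all 70 libraries, 25 without the region outliers (that library and vehicle PND22 replicate 4), 96 without these and D3, and 5 with the replicate block. With 1 library left out it had 0 (without vehicle PND22 replicate 3) to 35 calls (without D6 PND42 replicate 2). The causes were not tested. The change of Gal, -0.02, turned to 0.010 without dose in the model, 0.032 without the region outlier, 0.22 without D3 and 0.29 without both (adjusted p = 0.0302, edgeR), and lay between -0.071 and 0.060 with 1 library left out. The difference of Gnrh1 between DES and vehicle, -0.03, turned to 0.33 without the region outliers and 0.55 without these and D3, and lay between -0.38 and 0.23 with 1 library left out. Replicate numbers did not pair the libraries of the 2 ages: over 15 pairs the correlation of deviations had a median of -0.004, and 3 were over 0.1. With the replicate block the POA DES age change had 8167 calls. Of the 74 counts of list members, higher and lower, 14 moved without D3 and 16 without D3 and the region outlier. Depth limits the genes near 1 CPM, such as Psmb8 and Kiss1.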
